A study of Drosophila melanogaster with 12 samples.

Results

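The basement membrane genes of hemocytes, 8 in all, were followed by 3' RNA-seq in S2 cells of Drosophila melanogaster, a cultured line of embryonic origin that resembles hemocytes. These are Glt, vkg, LanA, LanB1, LanB2, Pxn, Ppn and trol, chosen by symbol from the 16718 genes of the count table, and 8 of 8 were found. The 4 groups were cells given double-stranded RNA (dsRNA) against row (row RNAi), dsRNA against BEAF-32 (BEAF-32 RNAi) or both dsRNAs (double RNAi), and untreated cells (control), with 3 libraries each. Cells got dsRNA at 4 µg per ml, a dose of 8 µg per ml followed 2 days later, and harvest came after 2 more days. Control cells received no dsRNA, so no group carried dsRNA of unrelated sequence. The products of both targets act on chromatin: ROW works with the heterochromatin-related protein HP1c, and BEAF-32 binds insulators. The labels do not say that the libraries of a group came from separate cultures, and the p-values reflect nothing but the spread among these libraries, which may be technical.

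A basement membrane is a thin extracellular sheet that underlies epithelia and wraps muscles, nerves and fat. Laminin trimers form the first layer, collagen IV gives the sheet its mechanical strength, and perlecan, papilin and other glycoproteins are built in between. In the fly, circulating blood cells (hemocytes) and the fat body secrete most of these proteins, and cultured hemocyte lines secrete them into the medium.

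Total counts ran from 2276507 to 3963412 per library, and 7377 genes passed the filter on low counts, all 8 members among them. The dsRNA targets were lower where they were targeted: row stood at 51.7% of control in row RNAi and 61.9% in double RNAi, and BEAF-32 at 36.7% in BEAF-32 RNAi and 52.3% in double RNAi. Row in double RNAi missed the threshold over all genes (adjusted p = 0.202, edgeR quasi-likelihood test with Benjamini-Hochberg adjustment, as for all adjusted p-values of genes here). The deepest library was double RNAi replicate 3, and several member values turned on it, as given below. Plasmatocytes are the fly's macrophage-like hemocytes, and all 11 plasmatocyte markers on the list had counts in these cells. So did all listed muscle, neuron and glia markers. The plasmatocyte marker NimC1 had 7 counts over the control libraries, 1 in BEAF-32 RNAi, 0 in row RNAi and 6 in double RNAi. NimC1 ran from 0 to 2.43 CPM over the control libraries and was not tested. Over the 12 libraries the plasmatocyte markers summed to 663 to 1176 CPM (counts scaled by TMM-adjusted library size). The 7 fat body markers summed to 0 to 3.10 CPM and the 5 muscle markers to 0 to 3.45 CPM. The 4 neuron markers summed to 23.9 to 40.3 CPM, the 2 glia markers to 31.1 to 60.3 CPM and the 4 crystal cell markers to 1.87 to 9.14 CPM. The fat body markers Lsp1alpha, Lsp1beta, Lsp2, Fbp1 and Fbp2 and the crystal cell markers PPO1 and lz had 0 counts in every library. Fewer cells of a type and less RNA per cell cannot be told apart in bulk libraries.

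Of the 8 genes, only Glt passed the test against control, in row RNAi and in double RNAi, where it stood at 65.7% and 64.5% of its control level. Glt encodes glutactin, an acidic sulfated glycoprotein of basement membranes, part of which resembles cholinesterases. Its levels were 111, 124 and 93.6 CPM in row RNAi, 148, 147 and 179 CPM in BEAF-32 RNAi, 105, 125 and 93.7 CPM in double RNAi, and 148, 179 and 174 CPM in control. The 6 libraries with row dsRNA thus lay at 93.6 to 125 CPM and the 6 without it at 147 to 179 CPM, with no overlap. Among the members such a gap between these 6 and 6 libraries was seen for Glt alone. How many of all tested genes show such a gap is not given here.

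**Figure D1:**
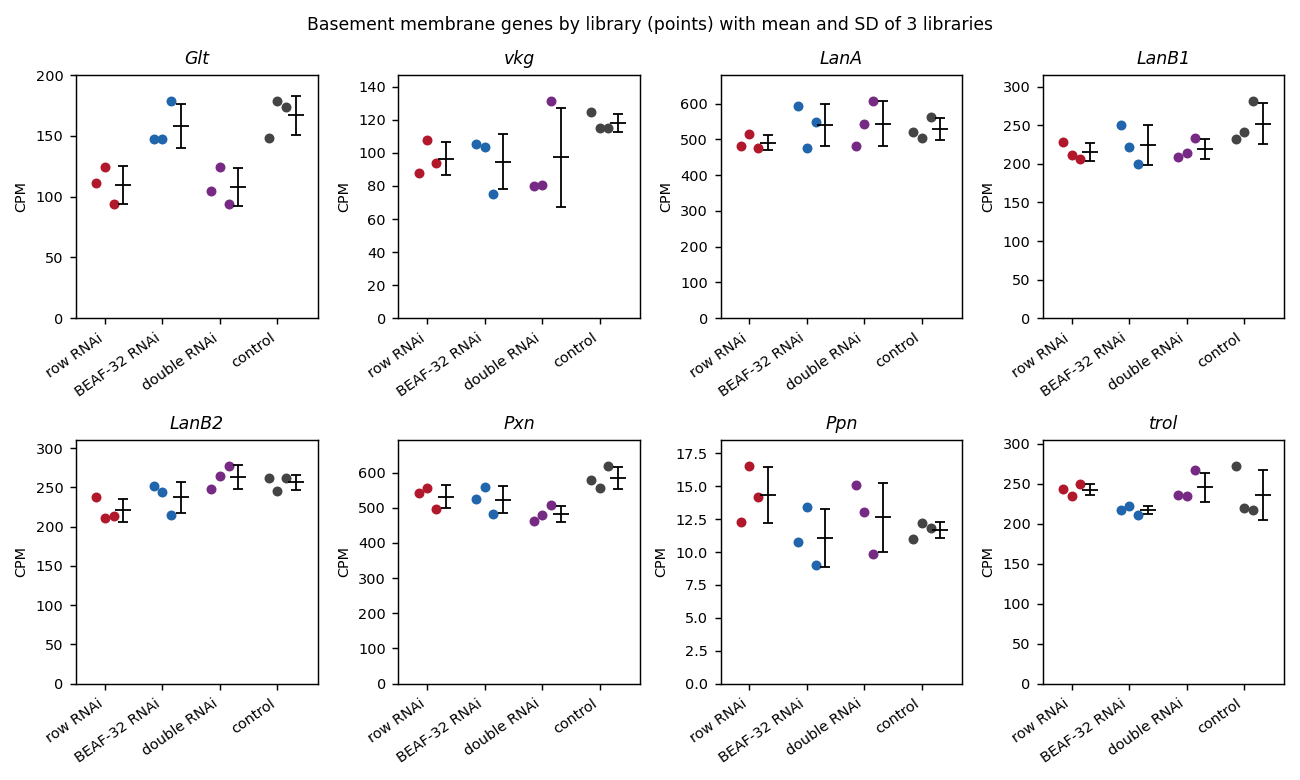
Level of each gene in CPM (y axis, from 0) by group (x axis); points are the 3 libraries of a group, and the bar beside them is the mean with the SD. Glt lies between 93.6 and 125 CPM in every library with row dsRNA and between 147 and 179 CPM in the others, while for LanA and trol each dsRNA group overlaps control.

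Glt averaged 110 ± 15.5 CPM in row RNAi against 167 ± 16.2 CPM in control (SD, n = 3 each; 65.7% of control), and fell by 0.61 on the log2 scale (SE 0.13, 95% interval -0.87 to -0.35, adjusted p = 0.0132). In double RNAi it averaged 108 ± 15.7 CPM (64.5% of control) and fell by 0.64 (SE 0.13, interval -0.90 to -0.38, adjusted p = 0.0066). These comparisons share their control libraries. In BEAF-32 RNAi Glt averaged 158 ± 18.2 CPM (94.7% of control). Its log2 change there, -0.08 (SE 0.13, interval -0.34 to 0.18), did not pass (adjusted p = 0.994).

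The 1 member called among 8 stood against 0.19% of all tested genes called in row RNAi and 0.271% in double RNAi. The members were chosen with earlier results of these data known, so such shares are a description and no test of the set. In BEAF-32 RNAi 0 of 8 members were called, against 0.0271% of tested genes, and DESeq2 and limma-voom also called 0. At an unadjusted p under 0.05 the members numbered 3 in row RNAi (5.73% of tested genes), 1 in BEAF-32 RNAi (5.18%) and 2 in double RNAi (8.63%). DESeq2's Wald test and limma-voom also called Glt in row RNAi (adjusted p = 0.00896 and 0.0233) and in double RNAi (0.00504 and 0.00795). The call depended on single libraries. In row RNAi it was lost without control replicate 2 (adjusted p = 0.178), control replicate 3 (0.127), row RNAi replicate 1 (0.067) or row RNAi replicate 3 (0.246). In double RNAi it was lost without control replicate 2 (0.0694), control replicate 3 (0.0688) or double RNAi replicate 3 (0.124). Over the 12 fits that each left out 1 library the log2 change of Glt stayed between -0.70 and -0.50 in row RNAi and between -0.76 and -0.55 in double RNAi.

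Glt can also be compared with and without row dsRNA in cells that all carried BEAF-32 dsRNA, a pair of groups that shares no library with row RNAi and control. There Glt was 105, 125 and 93.7 CPM in double RNAi against 148, 147 and 179 CPM in BEAF-32 RNAi, again without overlap. The log2 change was -0.56 (SE 0.13, interval -0.83 to -0.30), with adjusted p = 0.0525, which missed the threshold; 0.122% of tested genes passed it. Of 8 alternatives 5 called Glt (lowest adjusted p = 0.0106, without the filter on low counts), 3 did not (highest 0.0824, with only those groups in the fit), and 5 of the 12 fits that left out a library called it. The interaction, which tests whether the effect of one dsRNA depends on the other, was 0.05 for Glt (SE 0.18, interval -0.32 to 0.42, adjusted p = 1.00), and 0 genes passed it in edgeR or DESeq2, with 326 (4.42%) at an unadjusted p under 0.05. Adding BEAF-32 dsRNA to row dsRNA moved Glt by -0.03 (double RNAi minus row RNAi, interval -0.30 to 0.23, adjusted p = 0.986), and 0 genes passed in that comparison in edgeR or DESeq2, with 458 (6.21%) at an unadjusted p under 0.05. With library totals in place of TMM the sign of this small difference turned (0.01).

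Between row RNAi and BEAF-32 RNAi, where both groups received dsRNA, Glt was lower in row RNAi. It was 111, 124 and 93.6 CPM in row RNAi and 148, 147 and 179 CPM in BEAF-32 RNAi, a log2 change of -0.53 (SE 0.13, adjusted p = 0.0467). This comparison tests whether the dsRNAs differ in their effect on Glt, and 0.339% of tested genes passed it. The call was lost with library totals, limma-voom, a replicate block (adjusted p = 0.0558) or only those groups in the fit, and without any of 8 of the 12 libraries (highest 0.407, without row RNAi replicate 3).

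**Figure D2:**
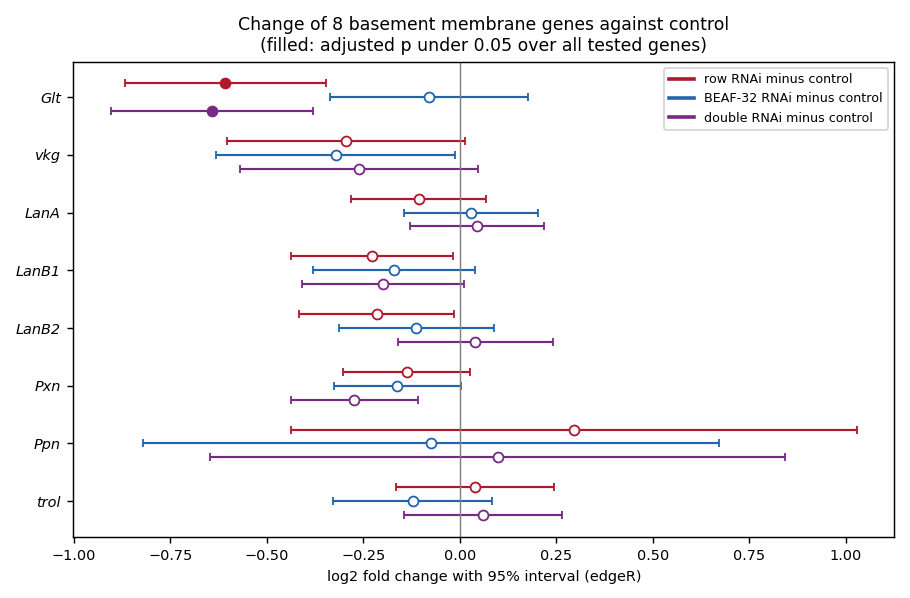
Log2 fold change against control (x axis) of the 8 genes (y axis) in row RNAi, BEAF-32 RNAi and double RNAi, with the 95% interval of edgeR's test; filled points passed the threshold over all tested genes. The filled points are Glt in row RNAi (-0.61) and in double RNAi (-0.64).

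Glt overlaps 1 annotated gene, CG9287, on the opposite strand. Whether their exons overlap was not checked. Where they do, reads of the pair cannot be told apart unless counting used strand, which no source used here states. CG9287, like Glt, belongs to the cholinesterase-like family. It had 140 counts over the 12 libraries against 4744 for Glt (2.95%). Its level was 2.75 ± 1.40 CPM in row RNAi, 4.72 ± 1.16 CPM in BEAF-32 RNAi, 3.01 ± 1.19 CPM in double RNAi and 5.37 ± 0.852 CPM in control (SD, n = 3 each). CG9287 was not called in row RNAi (log2 change -0.96, SE 0.71, adjusted p = 0.982) or double RNAi (-0.82, SE 0.71, adjusted p = 0.828).

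The genes most like Glt over the 12 libraries, by Pearson's correlation of log2 CPM among all tested genes outside the members, were Nplp2 (r = 0.95), row (0.89), CG10863 (0.88), Seipin (0.87) and Mtpalpha (0.87). Spearman's rho was 0.95, 0.87, 0.79, 0.83 and 0.85 in the same order. These values describe 12 libraries that share groups and scaling. Nplp2, a neuropeptide-like precursor gene expressed in hemocytes, averaged 191 CPM in row RNAi, 309.6 CPM in BEAF-32 RNAi, 150.7 CPM in double RNAi and 315.6 CPM in control. The transcript of row is the target of the dsRNA itself. CG10863, Seipin and Mtpalpha were not called in row RNAi or double RNAi (lowest adjusted p = 0.244). Seipin averaged 3.80 CPM in row RNAi, 6.55 CPM in BEAF-32 RNAi, 2.76 CPM in double RNAi and 7.11 CPM in control.

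**Figure D3:**
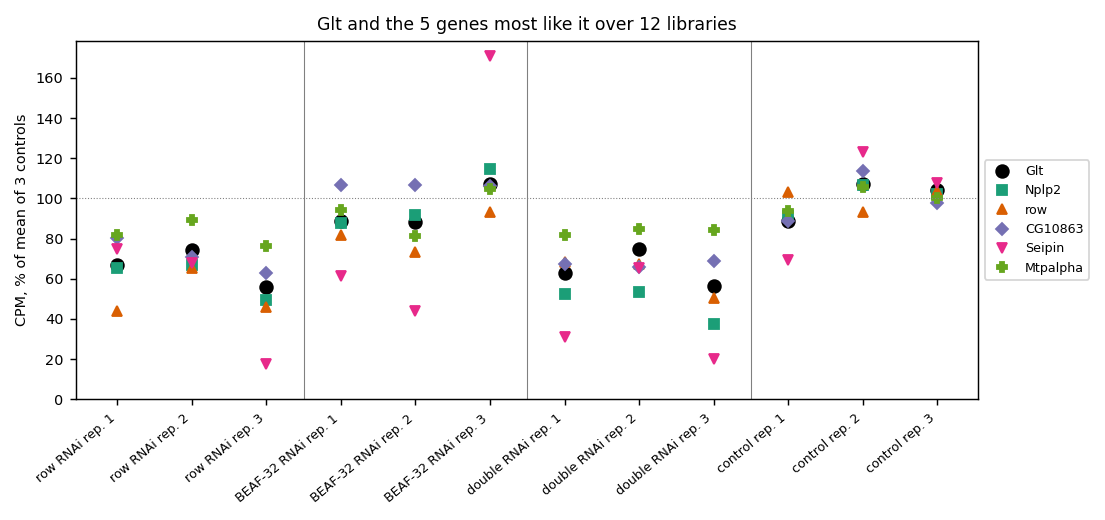
Level of Glt and of the 5 genes most like it in each of the 12 libraries (x axis), as a percent of the mean of the 3 control libraries (y axis, CPM). Glt, Nplp2, row, CG10863 and Mtpalpha lie lower in every row RNAi and double RNAi library than in the 3 control libraries, and Seipin overlaps control in row RNAi.

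Of 10 tested plasmatocyte markers 2 fell in row RNAi, Nplp2 (-0.73) and He (-1.96), and 1 in double RNAi, Nplp2 (-1.08). Of all tested genes 0.19% were called in row RNAi and 0.271% in double RNAi. The markers were listed with earlier results of these data known, so such shares are a description and no test. The marker medians were -0.10 and -0.01, against -0.00 and -0.00 over all tested genes. He encodes the hemocyte surface protein Hemese. The summed level of the 11 plasmatocyte markers was 663 to 802 CPM in row RNAi, 863 to 1176 CPM in BEAF-32 RNAi, 727 to 848 CPM in double RNAi and 883 to 1008 CPM in control. Without Nplp2, a sum added after the values were seen, the other 10 markers gave 506 to 591 CPM in row RNAi, 585 to 815 CPM in BEAF-32 RNAi, 609 to 680 CPM in double RNAi and 595 to 672 CPM in control. Row RNAi then still lay below control, and double RNAi overlapped it. Lamellocytes are a flattened hemocyte type formed on activation. The 7 lamellocyte markers summed to 556 to 682 CPM in row RNAi, 530 to 637 CPM in BEAF-32 RNAi, 593 to 727 CPM in double RNAi and 480 to 511 CPM in control. All 3 dsRNA groups thus lay above control. In double RNAi 1 of 5 tested, shot, rose (0.63, adjusted p = 0.0114), against 0.271% of all tested genes called. Most of the control sum came from mys (175 CPM), cher (171 CPM) and shot (117 CPM). The marker atilla had 5 counts in row RNAi, where the libraries ran from 0 to 1.66 CPM, and 0 counts in the other groups. Neither atilla nor ItgaPS4 was tested. The part of the plasmatocyte and lamellocyte markers in the Glt values was not tested.

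Collagen IV of the fly is built from the products of vkg and Cg25C (also named Col4a1), which lie next to each other on arm 2L and are transcribed away from each other. For vkg the levels were 87.9, 108 and 93.9 CPM in row RNAi, 105, 103 and 75.3 CPM in BEAF-32 RNAi, 79.7, 80.4 and 132 CPM in double RNAi, and 125, 115 and 115 CPM in control. The row RNAi and BEAF-32 RNAi libraries all lay below the control libraries, and double RNAi was split, with replicate 3 above every control library. Its log2 changes of -0.29, -0.32 and -0.26 in row RNAi, BEAF-32 RNAi and double RNAi (SE 0.15 each) did not pass (adjusted p = 0.855, 0.929 and 0.662). Without double RNAi replicate 3 the double RNAi value was -0.57 (adjusted p = 0.183), and without replicate 1 or 2 of that group it was -0.14. Without BEAF-32 RNAi replicate 3 the BEAF-32 RNAi value was -0.18.

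The partner gene Cg25C averaged 910 ± 58.8 CPM in row RNAi, 721 ± 128 CPM in BEAF-32 RNAi, 750 ± 123 CPM in double RNAi and 866 ± 60.0 CPM in control (SD, n = 3 each), with log2 changes of 0.07, -0.27 and -0.21 against control that did not pass (adjusted p = 0.994, 0.929 and 0.686). The ratio of Cg25C to vkg counts within a library does not depend on scaling. It was 9.64, 8.54 and 10.3 in row RNAi, 7.69, 7.53 and 7.62 in BEAF-32 RNAi, 8.31, 8.66 and 6.77 in double RNAi, and 7.48, 7.43 and 7.06 in control. Every row RNAi library lay above every control library, a difference of 0.37 on the log2 scale with p = 0.10 in a two-sided exact permutation test, the smallest that 3 against 3 libraries can give. BEAF-32 RNAi also lay above control throughout, by 0.06 (exact p = 0.10). Of 9 such comparisons of count ratios, chosen after the values were seen, the lowest adjusted p was 0.30, so none passed.

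**Figure D4:**
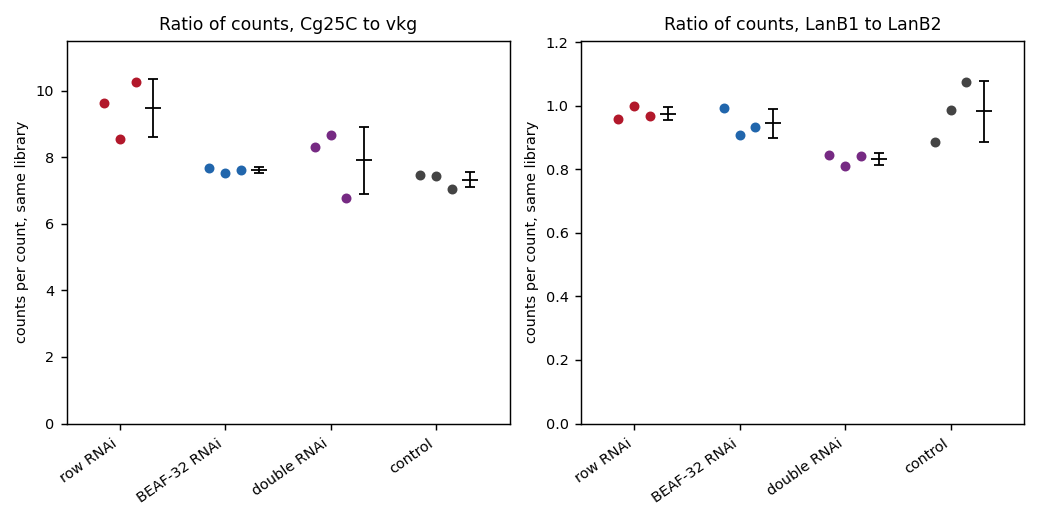
Ratio of counts within each library (y axis, from 0) for the collagen IV genes Cg25C and vkg (left) and the laminin genes LanB1 and LanB2 (right); points are libraries and bars the mean with the SD of 3. The Cg25C to vkg ratio is 8.54 to 10.3 in row RNAi and 7.06 to 7.48 in control; the LanB1 to LanB2 ratio is 0.81 to 0.844 in double RNAi and 0.886 to 1.08 in control.

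The laminin trimer is built from an alpha chain (LanA), a beta chain (LanB1) and a gamma chain (LanB2). LanA showed 482, 515 and 475 CPM in row RNAi, 593, 477 and 549 CPM in BEAF-32 RNAi, 481, 543 and 608 CPM in double RNAi, and 520, 503 and 562 CPM in control. These groups overlapped, and LanA had log2 changes of -0.11, 0.03 and 0.04 against control (SE 0.09 each; lowest adjusted p = 0.957). The 95% intervals over the 3 comparisons reached from -0.28 to 0.22, so larger average changes of LanA in either direction lie outside them.

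LanB1 was 228, 211 and 206 CPM in row RNAi, 251, 222 and 200 CPM in BEAF-32 RNAi, 209, 215 and 234 CPM in double RNAi, and 232, 242 and 282 CPM in control. All row RNAi libraries lay below the control libraries, while BEAF-32 RNAi and double RNAi each overlapped control. Its log2 changes of -0.23, -0.17 and -0.20 (SE 0.10 each) did not pass (lowest adjusted p = 0.614).

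LanB2 was 238, 211 and 213 CPM in row RNAi, 252, 245 and 214 CPM in BEAF-32 RNAi, 248, 265 and 277 CPM in double RNAi, and 262, 245 and 262 CPM in control. It lay below control in every row RNAi library and overlapped control in the other groups. The log2 change in row RNAi was -0.22 (SE 0.10, unadjusted p = 0.0353 in edgeR's test, adjusted p = 0.802), and those in BEAF-32 RNAi and double RNAi were -0.11 and 0.04. Double RNAi stood above row RNAi in every library, by 0.26 (SE 0.10, interval 0.06 to 0.46), and the interaction was 0.37 (SE 0.14, interval 0.09 to 0.65). Neither passed over all genes (adjusted p = 0.713 and 1.00).

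The ratio of LanB1 to LanB2 counts was 0.959 to 0.998 in row RNAi, 0.907 to 0.994 in BEAF-32 RNAi, 0.81 to 0.844 in double RNAi and 0.886 to 1.08 in control. The double RNAi libraries lay below each of the other 9 libraries, and against control the difference was -0.24 on the log2 scale (exact permutation p = 0.10, adjusted p = 0.30 over 9 comparisons). The LanA to LanB2 ratio was 2.02 to 2.44 in row RNAi, 1.95 to 2.56 in BEAF-32 RNAi, 1.94 to 2.19 in double RNAi and 1.98 to 2.14 in control, with overlap in each comparison.

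Pxn encodes peroxidasin, a secreted heme peroxidase that cross-links collagen IV. It was 543, 556 and 496 CPM in row RNAi, 525, 559 and 482 CPM in BEAF-32 RNAi, 463, 479 and 508 CPM in double RNAi, and 578, 557 and 619 CPM in control. The row RNAi and double RNAi libraries all lay below control, and BEAF-32 RNAi overlapped it in 1 library. In double RNAi Pxn averaged 483 ± 22.7 CPM against 585 ± 31.5 CPM in control (SD, n = 3 each), a log2 change of -0.27 (SE 0.08, interval -0.44 to -0.11), which missed the threshold over all genes (unadjusted p = 0.00156 in edgeR's test, adjusted p = 0.181). The changes in row RNAi and BEAF-32 RNAi were -0.14 and -0.16 (adjusted p = 0.883 and 0.929). Pxn overlaps the gene CG16986 on the opposite strand, which had 7.83% as many counts, and 3 noncoding genes.

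Ppn encodes papilin, a large matrix proteoglycan related to ADAMTS proteases but without their catalytic domain. It was the member with the fewest counts, 26 to 48 per library, and had 12.3, 16.5 and 14.2 CPM in row RNAi, 10.7, 13.4 and 9.02 CPM in BEAF-32 RNAi, 15.1, 13.0 and 9.83 CPM in double RNAi, and 11.0, 12.2 and 11.8 CPM in control. Row RNAi lay above control in each library by small margins. The log2 change there was 0.30 (SE 0.37, interval -0.44 to 1.03, adjusted p = 0.994), and counting error sets much of its width. The values in BEAF-32 RNAi and double RNAi were -0.07 and 0.10, with intervals of -0.82 to 0.67 and -0.65 to 0.84, so a change the size of that of Glt was not detectable there at this depth.

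The perlecan gene trol, a heparan sulfate proteoglycan gene with 25 annotated transcripts, was 243, 235 and 249 CPM in row RNAi, 217, 222 and 211 CPM in BEAF-32 RNAi, 235, 235 and 267 CPM in double RNAi, and 272, 219 and 218 CPM in control. Control replicate 1 was higher than every other library, and each group overlapped control. The log2 changes were 0.04, -0.12 and 0.06 (SE 0.10 each; lowest adjusted p = 0.94), with intervals from -0.33 to 0.27 over the 3 comparisons. Without control replicate 1 the row RNAi, BEAF-32 RNAi and double RNAi values were 0.15, -0.01 and 0.17. Row RNAi and double RNAi lay above BEAF-32 RNAi without overlap, and neither difference passed (adjusted p = 0.772 and 0.719).

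Set side by side, 5 members lay below control without overlap in row RNAi (Glt, vkg, LanB1, LanB2 and Pxn) and 1 above it (Ppn), 6 of 8 against 11.8% of tested genes in either direction. In BEAF-32 RNAi the number was 1 of 8 (vkg; 10.2% of tested genes), and in double RNAi 2 of 8 (Glt and Pxn; 13.1%). Between dsRNA groups it was 2 of 8 in row against BEAF-32 RNAi (Glt and trol; 13.2%), 2 of 8 in double against BEAF-32 RNAi (Glt and trol; 12.2%) and 1 of 8 in double against row RNAi (LanB2; 12.2%). At an unadjusted p under 0.05 there was 1 member in each of these comparisons and 1 in the interaction, against 7.36%, 7.62%, 6.21% and 4.42% of tested genes. The members were measured in the same libraries against the same 3 controls, so these counts are not independent. With members chosen when earlier results were known, the counts do not test the set against all genes. The median log2 change of the members was -0.18 in row RNAi, -0.12 in BEAF-32 RNAi and -0.08 in double RNAi, against -0.00 over all tested genes in each. Without Glt the medians were -0.14, -0.12 and 0.04. The 8 genes together held 0.179% to 0.196% of all counts in row RNAi, 0.193% to 0.206% in BEAF-32 RNAi, 0.182% to 0.224% in double RNAi and 0.206% to 0.227% in control.

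The members also differed in how much they varied. The coefficient of variation of Glt was 23.3% over the 12 libraries and 12.1% within groups, where counting error alone gives about 5.03%. For the laminin genes, Pxn and trol it was 8.36% to 10.1% over the 12 libraries, and counting error gives 2.53% to 3.86%. For vkg it was 18.1% over all libraries and 17.7% within groups, so most of its spread lay between libraries of a group. This also held for LanA (8.70% and 8.96%), LanB1 (10.1% and 8.91%) and trol (8.36% and 7.89%). For Ppn 17.5% over all libraries was close to the 16.6% that counting gives. Across the 12 libraries Pearson's r of log2 CPM was 0.72 between LanB1 and Pxn, 0.69 between vkg and Pxn, 0.63 between vkg and LanB1, and 0.60 between LanB1 and LanB2. Glt correlated at 0.08 with vkg and at -0.66 with trol. The genes outside the members most like vkg were msd1 (r = 0.88), HERC2 (0.87) and CG15083 (0.87), and those most like LanB1 were Tsp96F (0.85), CG30020 (0.82) and tex (0.82). As for Glt, these values only describe the 12 libraries.

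Other genes of basement membrane biology were read from lists chosen with earlier results of these data known. Of the other matrix components 5 of 11 in the table had enough counts to test, and 0 of them passed in row RNAi, BEAF-32 RNAi or double RNAi, with medians of 0.05, -0.12 and 0.20. SPARC, a collagen-binding protein of hemocytes and fat body, averaged 894 ± 274 CPM in row RNAi, 689 ± 33.1 CPM in BEAF-32 RNAi, 651 ± 14.4 CPM in double RNAi and 749.9 ± 23.0 CPM in control (SD, n = 3 each). Its log2 changes of 0.25, -0.12 and -0.20 did not pass (lowest adjusted p = 0.834), and row RNAi replicate 2 alone stood at 1201 CPM. Tig, which encodes the integrin ligand tiggrin, lay at -0.02, 0.24 and 0.20 against control (lowest adjusted p = 0.676). Hml, the hemolectin gene, lay at 0.05, -0.02 and 0.23 (lowest adjusted p = 0.756). Ndg, the nidogen gene, had 0 counts in every library, which allows at most 1.32 CPM in the shallowest library for counting error only. The other laminin alpha gene, wb, had 41 counts over all 12 libraries and was not tested.

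Genes that modify and export collagen were all measured, 20 of 20, and 0 passed against control, with medians of 0.02 in row RNAi, 0.03 in BEAF-32 RNAi and 0.03 in double RNAi. Plod, the lysyl hydroxylase that acts on collagen IV, had a log2 change of -0.54 in row RNAi (SE 0.28, adjusted p = 0.85) and of -0.05 and 0.13 in BEAF-32 RNAi and double RNAi. The coat protein gene Sec24CD had 0.07, 0.32 and 0.32, KdelR, the receptor that returns proteins to the endoplasmic reticulum, 0.20, 0.12 and 0.24, and Crag, which acts in polarized secretion of basement membrane proteins, 0.44, 0.40 and 0.33 (lowest adjusted p = 0.496).

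Of the matrix receptors and adhesion genes 16 of 19 were tested and 0 passed, with 11, 11 and 14 of 16 above 0 in row RNAi, BEAF-32 RNAi and double RNAi. The glypican gene dally averaged 25.3 ± 4.12 CPM in row RNAi, 21.6 ± 9.88 CPM in BEAF-32 RNAi, 28.7 ± 4.22 CPM in double RNAi and 15.5 ± 1.73 CPM in control (SD, n = 3 each). Its log2 changes were 0.70, 0.47 and 0.88 (lowest adjusted p = 0.256, in double RNAi). The syndecan gene Sdc lay at 0.20, 0.33 and 0.41, the focal adhesion kinase gene Fak at 0.18, 0.40 and 0.28, and another glypican gene, dlp, at -0.06, -1.49 and -1.18 with SEs of 0.74, 0.81 and 0.78 (lowest adjusted p over these genes 0.614).

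Of the matrix proteases and their inhibitors 6 of 9 were tested and 0 passed, with medians of 0.11, 0.08 and 0.10 in row RNAi, BEAF-32 RNAi and double RNAi. Mmp1, a secreted matrix metalloproteinase that cuts basement membrane proteins, averaged 19.8 ± 2.50 CPM in row RNAi, 12.0 ± 4.56 CPM in BEAF-32 RNAi, 16.3 ± 5.11 CPM in double RNAi and 7.53 ± 0.974 CPM in control (SD, n = 3 each). The log2 changes were 1.39 (SE 0.37), 0.68 (SE 0.38) and 1.13 (SE 0.37), with adjusted p = 0.128, 0.929 and 0.251. Row RNAi and double RNAi lay above control without overlap. The other matrix metalloproteinase gene, Mmp2, lay at -0.32, -0.06 and -0.26, the ADAM protease gene kuz at 0.29, 0.10 and 0.26, and the metalloproteinase inhibitor gene Reck at -0.18, -0.28 and -0.20 (lowest adjusted p = 0.544).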

How the data were processed

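The table the authors deposited holds unnormalized counts by gene and library. The libraries were primed with oligo-dT and carried sample barcodes and molecular identifiers, per the labels' protocols. The submitters' processing notes name STAR and dm3; the counting tool, annotation and use of strand were not given in the sources used here. Columns were tied to samples by title. Neighbouring genes and current names came from the annotation BDGP6.54, another build, so no coordinates are printed.

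The counts went into edgeR 4.0.16 under R 4.3.3: filterByExpr by group (minimum count 10), TMM scaling (factors 0.962 to 1.05), and a robust quasi-likelihood fit over all 12 libraries without a block (8 residual degrees of freedom). P-values were adjusted over the 7377 tested genes by the Benjamini-Hochberg method and called under 0.05. CPM is the count divided by the TMM-adjusted library size. The fit added prior degrees of freedom for the spread, pooled over genes (median 51.4), to the residual ones. SE is the log2 change over the square root of F. Intervals are 95% and, like the p-values, use the total degrees of freedom. Alternatives used DESeq2 1.42.0, limma 3.58.1 (voom), other scalings and filters, a replicate block, and leaving out each library. The fitting code was also run on counts simulated from the fit's own spread. This does not check that spread, and no outcome is given here.

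The members and lists (other matrix components, collagen export, receptors, proteases, cholinesterase-like genes, hemocyte regulators, cell type markers) were chosen with earlier results of these data known. Named were the members, each list's called genes and up to 4 others with its smallest p-values, Cg25C, Ndg, SPARC and wb, and the genes most correlated with Glt (5), vkg and LanB1 (3 each). Libraries of a group differed by 3.71 to 6.42 chi-square per degree of freedom, more than counting error.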

Additional observations from a re-analysis of the deposited data

Results flagged for a closer look

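Glt in row RNAi against BEAF-32 RNAi was marked because the effects of the dsRNAs on 1 gene differed by a direct test. Its log2 change was -0.53 (edgeR, adjusted p = 0.0467), with 3 of 3 row RNAi libraries below 3 of 3 BEAF-32 RNAi libraries. The call was lost with library totals, limma-voom, a replicate block or only those groups in the fit. It was also lost in 8 of the 12 fits that left out a library. Row RNAi averaged 110 ± 15.5 CPM and BEAF-32 RNAi 158 ± 18.2 CPM (SD, n = 3 each).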

How the results depend on the processing

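Leaving out each of the 12 libraries in turn gave ranges. Where a group was left with 2 libraries its spread was taken from all groups. The number of genes called ran from 4 to 19 in row RNAi against control, 1 to 4 in BEAF-32 RNAi against control, 9 to 29 in double RNAi against control, 4 to 24 in double against BEAF-32 RNAi, 0 to 2 in double against row RNAi and 8 to 33 in row against BEAF-32 RNAi. Members called ran from 0 to 1 in each of these but BEAF-32 RNAi against control and double against row RNAi, where they stayed at 0. In this section the other lists leave out the cell type markers, some of which passed in the main fit. Of 10 tested plasmatocyte markers 2 passed in row against BEAF-32 RNAi (0.339% of tested genes) and 1 in double against BEAF-32 RNAi (0.122%). Genes of the other lists called ran from 0 to 1 in double against row RNAi and in row against BEAF-32 RNAi (SPARC, without row RNAi replicate 1). Glt ran from -0.70 to -0.50 in row RNAi and -0.76 to -0.55 in double RNAi against control, and from -0.62 to -0.42 in row against BEAF-32 RNAi. Of 56 member values 20 changed sign in such a fit, none of them called. Against control these were trol in row RNAi (-0.017 to 0.15), LanA (-0.041 to 0.11) and Ppn (-0.24 to 0.053) in BEAF-32 RNAi, and LanA (-0.050 to 0.12), LanB2 (-0.0041 to 0.080), Ppn (-0.048 to 0.26) and trol (-0.0099 to 0.17) in double RNAi. In double against BEAF-32 RNAi they were vkg (-0.24 to 0.18), LanA (-0.079 to 0.094) and LanB1 (-0.11 to 0.054). In double against row RNAi they were Glt (-0.15 to 0.060), vkg (-0.27 to 0.15), LanB1 (-0.026 to 0.073) and trol (-0.049 to 0.053). In row against BEAF-32 RNAi they were vkg (-0.11 to 0.11), LanB1 (-0.13 to 0.026) and Pxn (-0.028 to 0.078). In the interaction they were Glt (-0.071 to 0.14), Pxn (-0.029 to 0.077) and Ppn (-0.27 to 0.043).

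The other 8 alternatives kept the Glt calls against control. DESeq2 called 22 genes in row RNAi against control, where edgeR called 14. Of the other lists, again without the cell type markers, DESeq2 called 1 gene there, Mmp1 (adjusted p = 0.0496, against 0.128 in edgeR). In double against BEAF-32 RNAi, with 9 genes and 0 members called, library totals gave 19 genes, no filter 23 and DESeq2 24. There 1 member, Glt, was called with DESeq2 size factors, no filter, a CPM filter, DESeq2 and limma-voom. LanB1 turned to 0.016 there, and Glt to 0.014 in double against row RNAi, with library totals. In double against row RNAi, with 0 genes called, no filter gave 3 genes, 1 of them, SPARC, on the other lists, and a fit of only those groups gave 2. In row against BEAF-32 RNAi, with 25 genes called, no filter gave 54 genes, 2 of them, Cg25C and SPARC, on the other lists, and the replicate block 16. Glt there was -0.53 with library totals, -0.54 with limma-voom, -0.53 with the replicate block and -0.53 with only those groups, with 0 members called in each. Library totals called 4 genes higher and 10 lower in double RNAi against control, 11 higher and 8 lower in double against BEAF-32 RNAi. TMM called 4 and 16, and 1 and 8. The cause of these changes was not tested. Same-numbered libraries did not deviate together over all tested genes (correlations -0.12 to 0.06 over 18 pairs). This cannot exclude a shared culture or batch, which the labels do not give. The replicate block gave Glt -0.61 in row RNAi and -0.64 in double RNAi against control. Depth limits Ppn most, with 26 to 48 counts per library.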

Other observations

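Glt belongs to a family of cholinesterase-like proteins, many of which act in adhesion at cell surfaces. Of 20 such genes in the table outside the members 8 were tested, and 0 passed against control in row RNAi, BEAF-32 RNAi or double RNAi, with medians of 0.01, -0.07 and -0.14. The carboxylesterase gene clt averaged 11.4 ± 2.58 CPM in row RNAi, 11.1 ± 2.28 CPM in BEAF-32 RNAi, 13.7 ± 1.42 CPM in double RNAi and 18.1 ± 0.874 CPM in control (SD, n = 3 each). Each dsRNA group lay below control in every library, with log2 changes of -0.68, -0.72 and -0.41 that did not pass (lowest adjusted p = 0.825). The neurotactin gene Nrt lay at 0.33, 0.59 and 0.31 (lowest adjusted p = 0.916), and alpha-Est7 at 0.00, 0.18 and -0.13 (lowest adjusted p = 0.877).

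Of 11 hemocyte regulators 6 were tested and 0 passed against control, with medians of 0.04, 0.13 and 0.26 in row RNAi, BEAF-32 RNAi and double RNAi. The GATA factor gene srp, which drives hemocyte fate, lay at 0.05, 0.00 and 0.22 against control in row RNAi, BEAF-32 RNAi and double RNAi (lowest adjusted p = 0.758). Its partner gene ush lay at 0.01, 0.24 and 0.29, and the growth factor gene Pvf2 at 0.15, 0.34 and 0.70 (lowest adjusted p over both 0.50). The transcription factor gene kn had 49 counts over 3 double RNAi libraries and 4 over 3 control libraries, a log2 change of 3.37 (SE 1.14, adjusted p = 0.268).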
